A study of Homo sapiens with 4 samples.

Results

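The 35 genes described here encode the proteins of nucleotide excision repair (NER), the pathway that removes UV photoproducts from DNA. They were taken by name from a list that was chosen with earlier results of these data known. All 35 were found among the 20033 protein-coding genes of GENCODE release 44, which holds 62663 genes on chromosomes 1 to 22, X and Y. H3.3, the histone H3 variant that is placed into chromatin outside replication, was immunoprecipitated from MRC5 cells, a line of human lung fibroblasts that the study's methods name MRC5_VA and that is immortalized with SV40. One group was not irradiated. The other received 10 J/m2 of UV-C and was collected 3 h later. Both groups are wild type, and no gene was deleted or depleted in them. The DNA of 3 replicates was pooled before sequencing, which gave 1 library for each of the groups. The conditions were therefore not tested against each other, and the values below compare 2 peak lists, not conditions with their spread. UV and library cannot be told apart. For each gene the intervals within 1 kb of any annotated transcription start site (TSS) were taken as its TSS intervals, and other intervals that overlapped the gene as its body intervals. The canonical TSS is the start of the transcript that the annotation tags as canonical.

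In global genome NER, XPC with its partners RAD23B and centrin finds the distorted helix, often after UV-DDB, a receptor in a cullin ubiquitin ligase, has bound the photoproduct. In transcription-coupled NER, a stalled RNA polymerase II is bound by the proteins encoded by *ERCC6* (CSB) and *ERCC8* (CSA), which bring in UVSSA. Both branches hand over to the transcription factor TFIIH, which opens the DNA, to XPA and replication protein A, which check and hold the opened strands, and to the nucleases that cut on either side of the lesion. The gap is then filled and sealed. H3.3 is found at active promoters, enhancers and transcribed genes.

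The lists held 102949 peaks without UV and 89740 after UV, in 88822 and 77183 distinct intervals on the analysed chromosomes, because the authors wrote 1 row per summit. The number of reads behind them is not known from the lists. Among cell type markers, 12 of 16 fibroblast genes had a TSS interval in each list. *COL1A1*, *COL1A2* and *VIM* were among them, while the fibroblast markers *COL3A1*, *THY1*, *LUM* and *DCN* had none in either. At canonical TSSs, 10 of 16 fibroblast markers had an interval without UV and 12 after UV, against 0 of 9 epithelial markers in both lists, 1 and 0 of 8 leukocyte markers, and 1 of 6 endothelial markers in each. Over any TSS the counts were 3 of 9 epithelial markers in each list, 2 and 1 of 8 leukocyte markers, and 1 of 6 endothelial markers in each. An interval shows only where H3.3 was enriched, not how much a gene is expressed.

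H3.3 lay at a TSS of most NER genes. Without UV, 23 of 35 had a TSS interval (65.7%, exact 95% interval 47.8 to 80.9%, counting error only). After UV, 28 did (80%, exact 95% interval 63.1 to 91.6%). Of all protein-coding genes, 48.0% and 54.0% had one. NER genes carry many annotated TSSs, with a median of 11 per gene against 5 over all protein-coding genes. Among the 4471 protein-coding genes with at least 11 TSSs the shares were 71.6% and 76.7%. In both lists 22 NER genes had a TSS interval (62.9%, against 44.8% over all protein-coding genes). After UV only, 6 did (17.1%): *ERCC6*, *GTF2H5*, *XPA*, *RPA2*, *ERCC4* and *LIG3*. The background of the same call over all protein-coding genes was 9.2%. Without UV only, *POLK* had one (2.86%), against 3.2% over all protein-coding genes. Neither list held a TSS interval for *CETN2*, *RBX1*, *XAB2*, *GTF2H2*, *MNAT1* or *RPA3* (17.1%, against 42.8% over all protein-coding genes). Of the 4471 genes with at least 11 TSSs, 67.8% had a TSS interval in both lists, 8.90% after UV only, 3.80% without UV only and 19.5% in neither. Among genes without a TSS interval in the unirradiated list, 6 of 12 NER genes (50%) had one after UV, against 17.7% of all 10417 such protein-coding genes and 31.4% of the 1269 with at least 11 TSSs. No statement on chance is made from these shares.

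**Figure D1:**
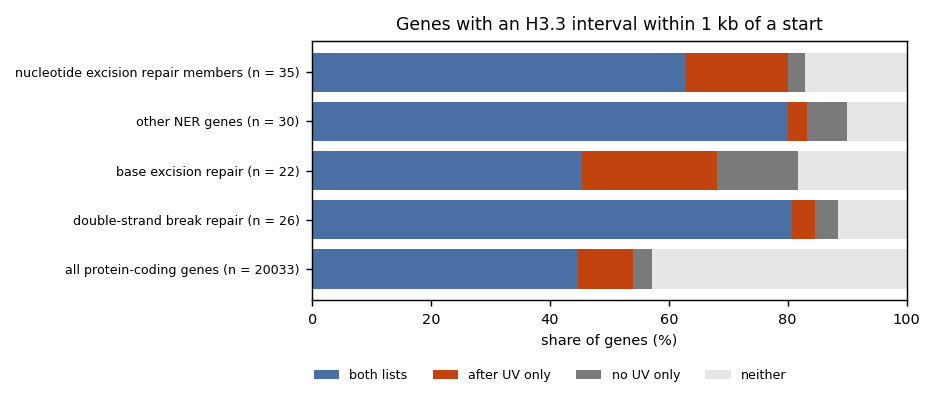
Share of genes (x axis, in %) with an H3.3 interval within 1 kb of a TSS in both lists, after UV only, without UV only or in neither, for the 35 NER genes, 3 lists of other repair genes and all 20033 protein-coding genes. After UV only, 17.1% of the 35 NER genes and 9.20% of all protein-coding genes had an interval.

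Counted at the canonical TSS alone, 16 NER genes (45.7%) had an interval without UV and 22 (62.9%) after UV. The shares were 38.6% and 46.6% over all protein-coding genes, and 52.6% and 62.0% over those with at least 11 TSSs. Both lists held one for 14 NER genes (40%, background 35.9%) and neither for 11 (31.4%, background 50.7%). Over the genes with at least 11 TSSs these shares were 49.2% and 34.6%. After UV only there were 8 (22.9%, background 10.7%), namely *ERCC6*, *GTF2H1*, *GTF2H5*, *CDK7*, *XPA*, *RPA2*, *LIG3* and *XRCC1*. Without UV only there were 2 (5.71%, background 2.67%), *ERCC2* and *CCNH*. *ERCC6*, *GTF2H5*, *XPA* and *LIG3* had an interval after UV only in all 8 settings run, with any TSS or the canonical one, 3 window sizes, 2 stricter peak thresholds, equal numbers of peaks and distance from the summit. *RPA2* was called so in 6 of these settings and *ERCC4* in 4, and *POLK* was called without UV only in 2. The 4 intervals at the first 4 genes covered the canonical TSS, and their GC content was 71.3% at *ERCC6*, 73.3% at *GTF2H5*, 73.8% at *XPA* and 73.3% at *LIG3*. The median GC content of the TSS intervals of all NER genes was 51.3% without UV and 53.1% after UV. Of these intervals only 20 of 55 and 27 of 72 lay within 1 kb of a canonical TSS. The other UV intervals over a canonical TSS belong to genes called in both lists. Their GC content was 77.5% at *UVSSA*, 71.6% at *CUL4A*, and 60.3 to 68.2% at *XPC*, *CUL4B*, *ERCC1* and *ERCC5*. The part of GC content in these calls was not tested.

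The distance of 1 kb placed some genes by a small margin. Just inside it were the *CDK7* interval without UV, 990 bp from the nearest TSS, a *GTF2H1* interval after UV at 987 bp and the *POLK* interval at 958 bp. Just outside were the nearest *RPA2* interval without UV at 1276 bp, *RBX1* at 1534 bp and 2383 bp in the lists without and after UV, and *XAB2* at 1842 bp after UV.

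Sequences just upstream of 4 genes are shown, from RefSeq on GRCh38.p14, because these genes cover the patterns seen: *XPC* with an interval over its TSS in both lists, *GTF2H5* and *LIG3* after UV only, and *RBX1* in neither. Stretches that any annotated UTR overlaps were left out. Capitals mark a GC box (GGGCGG or CCGCCC) or the core of an ETS site (CCGGAA or TTCCGG).
XPC, chr3:14178622-14178816, minus strand: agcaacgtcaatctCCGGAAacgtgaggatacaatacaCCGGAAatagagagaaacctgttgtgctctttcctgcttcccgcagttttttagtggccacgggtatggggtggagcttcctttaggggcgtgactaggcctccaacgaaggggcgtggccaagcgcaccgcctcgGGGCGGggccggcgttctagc
GTF2H5, chr6:158168281-158168349, plus strand: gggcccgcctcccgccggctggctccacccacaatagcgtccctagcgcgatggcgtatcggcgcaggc
LIG3, chr17:34980262-34980511, plus strand: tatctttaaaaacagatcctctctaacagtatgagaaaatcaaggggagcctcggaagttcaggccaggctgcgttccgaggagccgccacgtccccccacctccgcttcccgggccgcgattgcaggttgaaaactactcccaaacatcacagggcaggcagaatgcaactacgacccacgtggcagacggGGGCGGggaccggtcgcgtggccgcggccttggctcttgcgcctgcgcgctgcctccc
RBX1, chr22:40951128-40951377, plus strand: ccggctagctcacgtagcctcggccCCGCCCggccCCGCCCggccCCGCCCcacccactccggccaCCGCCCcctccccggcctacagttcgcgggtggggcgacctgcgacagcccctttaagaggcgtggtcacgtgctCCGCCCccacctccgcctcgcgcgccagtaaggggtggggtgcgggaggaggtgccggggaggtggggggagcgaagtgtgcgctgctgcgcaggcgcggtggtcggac
Of the printed bases, 21 of 195 at *XPC* lay in an interval without UV and 104 after UV. All 69 printed bases of *GTF2H5* and 155 of 250 of *LIG3* lay in an interval after UV, and none did without UV. *RBX1* had no interval there, although its printed stretch was the richest of the 4 in G and C, at 76.8%, and held 5 GC boxes.

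RefSeq promoters, 250 bases before to 50 after the start, were at hand for 32 of the 35 genes, and for 27 of them the start was the canonical TSS. Over the 32, the median GC content was 62%, against 63% over 15345 protein-coding promoters. A GC box stood in 23 of 32 (71.9%), against 59.2% of all promoters. The ETS core stood in 14 of 32 (43.8%), against 23.1% of all. Among the 27 that begin at the canonical TSS, by the call at the canonical TSS, the ETS core was in 5 of 8 promoters with an interval in both lists, in 1 of 7 after UV only (*GTF2H1*), in 1 of 2 without UV only (*CCNH*) and in 6 of 10 in neither. These letters are a description of the sequence and mark no bound site.

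The genes for damage recognition carried some of the strongest H3.3 peaks of the group. The strength of a peak was ranked by its −log10 q (q, the p-value adjusted for the number of candidates) among the TSS intervals of protein-coding genes in the same list, because these values depend on the depth of a library. The interval over the *XPC* start (chr3:14178117-14178642 without UV, chr3:14178120-14178725 after UV) stood at percentile 97.3 without UV and 86.9 after UV. It was 526 bp wide without UV and 606 bp after UV, and its summit lay 233 bp and 218 bp downstream of the canonical TSS. It also lies within 1 kb of the start of *LSM3*, a gene on the opposite strand for an RNA-binding protein. A second *XPC* interval of 497 bp, near an internal start, was in the list without UV only, so the summed width of the *XPC* TSS intervals was 1023 bp without UV and 606 bp after UV. For *RAD23B*, which stabilizes XPC, the single TSS interval was 580 bp wide without UV and 679 bp after UV and stood at percentiles 91.6 and 91.3. *CETN2*, which encodes centrin in the same complex, had its nearest interval 17112 bp from a TSS without UV and 9220 bp away after UV.

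Of the genes of the UV-DDB ligase, *DDB2* was covered most broadly. *DDB2* encodes the subunit that binds photoproducts. Its 7 TSS intervals without UV summed to 6325 bp, and its 5 after UV to 4037 bp. The interval at its canonical start was nearly as wide in both lists, with 1656 bp and 1701 bp and 3 summits in each, while its rank was 63.0 without UV and 28.4 after UV. The highest ranks of *DDB2* were those of an intronic interval with its summit 18639 bp into the gene without UV and 18629 bp after UV, at percentile 82.0 without UV and 83.3 after UV. *DDB1*, the adaptor that joins DDB2 to the cullin, had none at its canonical TSS in either list. Weak intervals at internal starts summed to 281 bp without UV and 1142 bp after UV, at percentiles of at most 23.7 and 8.73.

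The cullin genes of this ligase differed from each other. *CUL4A* had an interval just downstream of its canonical TSS, 693 bp wide without UV and 737 bp after UV, at percentiles 73.9 and 88.7. Another start of *CUL4A* lay under a second interval of 412 bp and 538 bp, and *PCID2* starts within 1 kb of these intervals. *CUL4B*, on chromosome X, summed to 2424 bp over 4 intervals without UV and to 1347 bp over 3 after UV. The interval over its canonical TSS was 774 bp and 396 bp wide, with almost the same rank (69.6 and 71.1). *RBX1*, the RING subunit that receives the ubiquitin-carrying enzyme, had no TSS interval in either list.

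In the transcription-coupled branch, 5 of 7 genes had a TSS interval without UV (71.4%, background 48.0%) and 6 after UV (85.7%, background 54.0%). *ERCC6*, whose product CSB is the first to bind the stalled polymerase, had its nearest interval 2637 bp from a TSS without UV. After UV an interval of 362 bp (chr10:49538768-49539129) covered its canonical start, at percentile 50.8. *ERCC8* had an interval upstream of its start in both lists, 341 bp wide at percentile 60.4 without UV and 901 bp with 2 summits at percentile 82.9 after UV. The divergent gene *NDUFAF2*, for a mitochondrial assembly factor, starts within 1 kb of it, so the interval cannot be given to 1 of the genes. *UVSSA* had 2 intervals in each list, which summed to 918 bp without UV and 1188 bp after UV. The one at its canonical TSS stood at percentile 29.1 without UV and 86.4 after UV.

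*USP7*, the deubiquitinase that UVSSA carries, had 1 TSS interval of 513 bp without UV and 5 after UV, which summed to 2242 bp. The 4 added intervals lay at internal or upstream starts, with percentiles of 10.9 to 17.3, and the shared one stood at 47.7 and 63.3. *ELOF1*, an elongation factor of RNA polymerase II, shared an upstream interval with *ZNF627* of 788 bp in unirradiated and 824 bp in irradiated cells, at percentiles 15.6 and 34.4. *TCEA1*, which encodes TFIIS, the factor that lets a backtracked polymerase cut its transcript, had a strong interval just downstream of its start. That interval was 700 bp wide without UV and 698 bp after UV, at percentiles 90.9 and 96.6. The upstream one was 1426 bp wide without UV and overlapped 2 intervals after UV. Of these only the one of 554 bp lay within 1 kb of a TSS. *XAB2*, a splicing factor that binds XPA, had no TSS interval in either list.

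The core of TFIIH has 7 genes here, of which 5 had a TSS interval without UV and 6 after UV. These were 71.4% and 85.7%, against 48.0% and 54.0% over all protein-coding genes. *GTF2H5*, which encodes the smallest subunit, had its nearest interval 2977 bp from a TSS without UV. After UV it had 2, of 484 bp over its start (chr6:158167921-158168404, percentile 55.9) and 542 bp just downstream (percentile 7.64), and the divergent gene *SERAC1* starts within 1 kb of both. *ERCC3*, the XPB translocase, had an interval just downstream of its start in both lists, of 294 bp at percentile 20.5 and of 320 bp at percentile 62.7, and a second one of 580 bp after UV. *ERCC2*, the XPD helicase, summed to 3138 bp over 4 intervals without UV and 3380 bp over 6 after UV. Most of these lay at starts inside the gene. The upstream interval that decided the canonical call of *ERCC2* was present in both lists, 971 bp from the TSS without UV and 1153 bp after UV.

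The remaining core subunits differed in where their intervals lay. *GTF2H1* summed to 1940 bp without UV and 1929 bp after UV, but 5 intervals inside the gene made up the first value. After UV, one of its 4 intervals, 294 bp wide at percentile 18.8, lay upstream of the canonical start, where *HPS5* also starts. *GTF2H3* had intervals at internal starts alone, with summed widths of 1515 bp and 1427 bp and best ranks of 43.9 and 14.0. *GTF2H4* had an upstream interval of 386 bp in unirradiated and 431 bp in irradiated cells, at percentiles 53.7 and 41.0. Without UV a second one, of 456 bp, lay farther upstream, 976 bp from the canonical TSS. The interval that overlapped it after UV lay beyond 1 kb and was not counted. After UV the second TSS interval, of 413 bp, lay inside the gene. *GTF2H2* had no interval within 100 kb of its canonical TSS in either list. It lies in a duplicated part of chromosome 5, and its copies *GTF2H2C* and *GTF2H2B* had 1 interval each without UV and 0 and 1 after UV, so reads that match several copies make the absence uncertain.

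In the kinase module of TFIIH, which phosphorylates RNA polymerase II, no gene had an interval near its canonical TSS in both lists. Of all protein-coding genes 35.9% did, and the module has only 3 genes here. *CDK7*, the kinase itself, had an upstream interval of 393 bp in unirradiated and 612 bp in irradiated cells, at gaps of 1081 bp and 846 bp from the canonical TSS. *CCNH*, its cyclin, had a weak interval of 281 bp at its start without UV (percentile 4.36) and none there after UV. The other 3 intervals of *CCNH* lay at other starts in both lists, and its best rank was 75.0 without UV and 25.1 after UV. *MNAT1*, the assembly factor, had its nearest interval 10713 bp from a TSS without UV and 10218 bp away after UV.

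Of the 4 genes for damage verification and strand protection, 1 had a TSS interval without UV and 3 after UV. These were 25% and 75%, against 48.0% and 54.0% over all protein-coding genes. *XPA*, the scaffold protein of the repair complex, had its nearest interval 2186 bp from a TSS without UV, and one of 302 bp over its start after UV (chr9:97697079-97697380), at percentile 29.8. *RPA2* had an interval of 711 bp after UV, 856 bp from its canonical TSS, at percentile 28.8. *RPA1*, the large subunit of replication protein A, had in each list a single TSS interval, at a start inside the gene, with summits 61570 bp and 62167 bp downstream of the canonical TSS. These were 358 bp and 295 bp wide, did not overlap, and stood at percentiles 28.8 and 46.4. *RPA3* had no TSS interval in either list, and no interval lay within 100 kb of its canonical TSS after UV, against 2 without UV.

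Of the nuclease genes, *ERCC1* had the widest coverage of the 35. Together with the product of *ERCC4* (XPF) it makes one of the incisions. Its TSS intervals summed to 8293 bp over 8 intervals without UV and 13333 bp over 14 after UV, with 14 and 24 summits. The strongest interval of the whole group (chr19:45428581-45430224 without UV, chr19:45428531-45430248 after UV) covers an alternative TSS, 4664 bp and 4614 bp upstream of the canonical start, and stood at percentiles 99.7 and 99.6. The annotated *ERCC1* gene is 71.5 kb long, of which 54.9 kb lie upstream of the canonical TSS and overlap *FOSB* and *POLR1G*, so intervals of *ERCC1* and of these genes cannot be told apart there. Over the canonical start itself an interval of 827 bp in unirradiated and 541 bp in irradiated cells stood at percentiles 61.2 and 79.8. *ERCC4* had a single weak interval of 348 bp after UV at an internal start, at percentile 3.98. *ERCC5*, the XPG nuclease that makes the other incision, had an interval over its start of 685 bp in unirradiated and 330 bp in irradiated cells, at percentiles 20.5 and 21.5.

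For gap filling and ligation, *LIG3* had the only interval over a canonical start. *LIG3* encodes a ligase that seals the nick. Its interval of 838 bp after UV (chr17:34980357-34981194) stood at percentile 51.2, the nearest one without UV was 12449 bp away, and *CCT6B* starts within 1 kb of it. *XRCC1*, the partner of that ligase, had an interval of 669 bp in unirradiated and 930 bp in irradiated cells inside the gene, 15045 bp and 14810 bp from the canonical TSS, and after UV a second of 310 bp, 889 bp from the canonical TSS. *POLK*, a gap-filling polymerase, had an interval of 507 bp without UV at an internal start, at percentile 2.46, with a GC content of 37.1%.

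Among the 22 genes with TSS intervals in both lists, the summed width after UV was larger for 13 and smaller for 9. The median ratio of UV to no UV was 1.12, against 1.18 over 8974 protein-coding genes. At least 1.5 times wider were 8 (36.4%, background 29.4%): *USP7* at a ratio of 4.37, *DDB1* at 4.06, *ERCC3* at 3.06, *ERCC8* at 2.64, and *XRCC1*, *ELOF1*, *ERCC1* and *CDK7* between 1.56 and 1.85. At least 1.5 times narrower were 5 (22.7%, background 10.2%): *ERCC5* at 0.48, *CUL4B* at 0.56, *XPC* and *TCEA1* at 0.59 and *DDB2* at 0.64. Intervals at other starts made up much of the width of the wider genes. With the canonical TSS alone, 2 of 14 genes were at least 1.5 times wider (14.3%, background 30.4%), *CUL4A* at 1.84 and *ERCC8* at 2.64. The *CUL4A* value rests on the 1 kb limit. Its second interval lay 1009 bp from the canonical TSS without UV and 967 bp after UV, so only the UV width counted it. The *CUL4A* interval nearest to that TSS was 693 bp wide without UV and 737 bp after UV. At least 1.5 times narrower were 4 (28.6%, background 6.25%), *CUL4B*, *TCEA1*, *GTF2H4* and *ERCC5*, with ratios of 0.48 to 0.59. *XPC* had a ratio of 1.15 there. For *GTF2H4* and *TCEA1* the ratio also depends on the 1 kb limit. An upstream interval of each without UV overlapped a UV interval that lay beyond 1 kb of any TSS and was not counted. The interval nearest to the canonical TSS was 386 bp and 431 bp wide for *GTF2H4*, and 700 bp and 698 bp for *TCEA1*. The TSS intervals had more summits after UV for 6 of the 22 genes (27.3%, background 32.4%), as many for 9 and fewer for 7 (31.8%, background 22.9%).

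**Figure D2:**
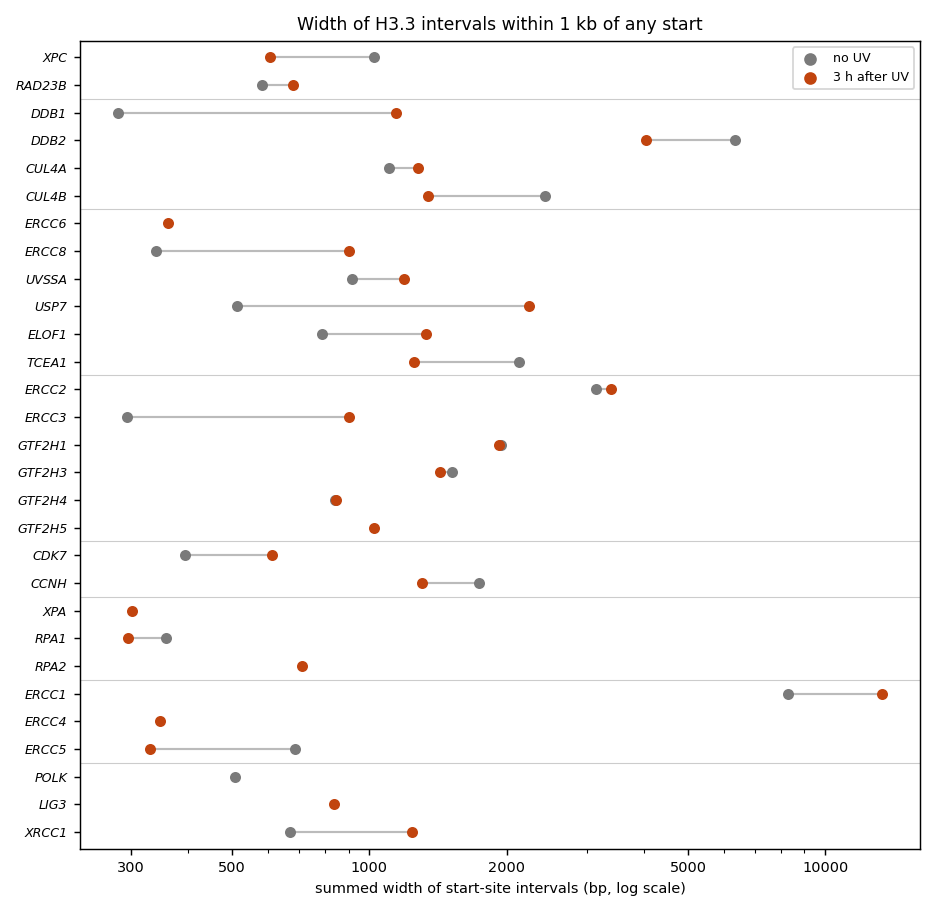
Summed width of TSS intervals (x axis, bp on a log scale) for the 29 NER genes with a TSS interval in either list, without UV in grey and after UV in orange, with a single point where 1 list holds none. *ERCC1* and *DDB2* lie farthest to the right, and the longest connecting lines are those of *DDB1* and *USP7*.

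The strongest summit lay at nearly the same place in both lists for most genes. For 13 of the 14 genes with an interval near the canonical TSS in both lists, the highest summit of the interval nearest to that TSS moved by 6 to 71 bp. The exception was *DDB2*, with 3 summits in that interval, at 782 bp. The median move was 20 bp, against 32 bp over 7200 protein-coding genes. Summits within 1 kb of the canonical TSS had a median position of 15 bp downstream without UV (19 summits) and 74.5 bp after UV (22 summits), against 138 bp and 137 bp over all protein-coding genes.

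By rank in their own list, the NER genes with a TSS interval had a median of percentile 53.7 without UV and 51.0 after UV, below the medians of 69.0 and 69.8 over all protein-coding genes with one. The ranks of single genes moved both ways. *ERCC3* stood 42.2 percentile points higher after UV, and *XRCC1*, *ERCC8*, *ELOF1* and *UVSSA* 18.3 to 27.3 points higher. *CCNH* stood 49.9 points lower, *GTF2H3* 30.0 points lower, and *DDB1*, *CDK7*, *GTF2H4* and *XPC* 10.4 to 16.6 points lower. *ERCC1*, *RAD23B* and *ERCC5* kept their ranks to within 0.957 points.

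**Figure D3:**
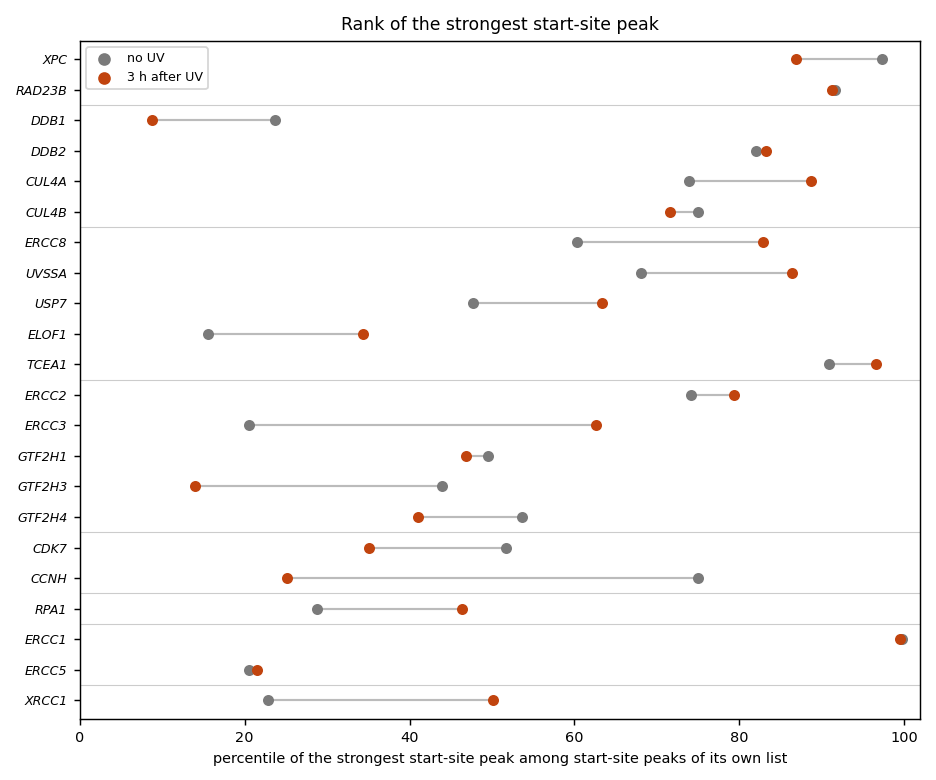
Percentile of the strongest TSS peak of each gene among the TSS intervals of protein-coding genes in the same list (x axis), for the 22 NER genes with a TSS interval in both lists, without UV in grey and after UV in orange. *ERCC1* stays near the top, while *CCNH* and *ERCC3* have the longest lines, in opposite directions.

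Within gene bodies the UV list held fewer intervals, as it did over all protein-coding genes (51560 without UV, 42224 after UV). Body intervals of the NER genes numbered 144 without UV, in 26 genes, and 113 after UV, in 24 genes. Per 100 kb of gene this was 8.11 and 6.37, against 3.74 and 3.06 over all protein-coding genes. Without *ERCC1*, which held 25 and 21 of them, 20 and 18 of these upstream of its canonical transcript, the numbers were 119 and 92, or 6.99 and 5.40 per 100 kb. After UV 16 genes had fewer body intervals (45.7%, background 27.6%) and 8 had more (22.9%, background 15.1%), while 2 had as many and 9 had none in either list. Both shares lie above the background, where 9106 of 20033 genes have no body interval at all. Among the 4471 protein-coding genes with at least 11 TSSs, 41.1% had fewer and 19.3% had more, so the shares of the NER genes are near those of such genes.

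Without UV, the largest numbers after *ERCC1* were in *RPA1*, *RPA2*, *RAD23B* and *GTF2H1*. After UV they were in *RPA1* and *DDB2*. *RPA1* had 17 body intervals without UV and 10 after UV, *RPA2* 10 and 6, *RAD23B* 10 and 5, and *GTF2H1* 10 and 7. *MNAT1*, the longest of the 35 genes, had 3 and 0. More after UV were found in *DDB1* (2 and 4), *DDB2* (7 and 9), *ERCC2* (4 and 6) and *GTF2H5* (3 and 5), and by 1 interval in *CUL4B*, *USP7*, *ELOF1* and *CDK7*. Most body intervals had their summit in an intron of the canonical transcript, 114 of 144 and 85 of 113. They were narrow, with median widths of 420.5 bp and 422 bp. Of the intervals without UV, 56.9% overlapped one of the UV list, and of those after UV 67.3% overlapped one without UV, against 51.3% and 63.0% over all protein-coding genes. At the TSSs the corresponding shares were 81.8% of 55 intervals and 65.3% of 72. The same shares over all protein-coding genes were not computed, so these values cannot be read as particular to NER genes.

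**Figure D4:**
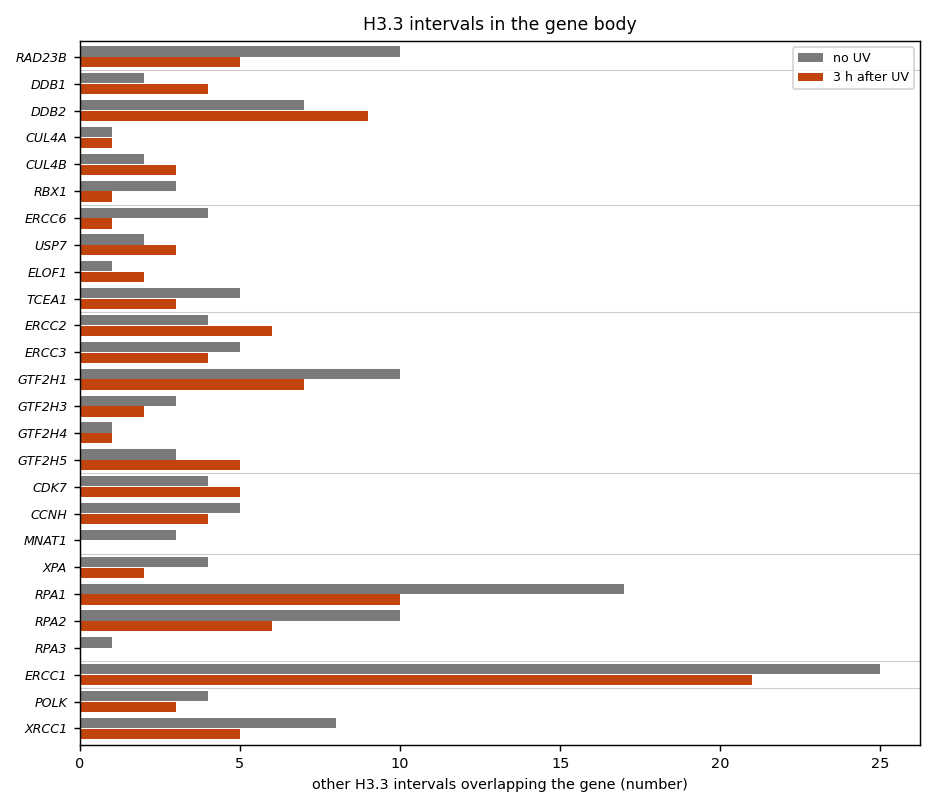
Number of body intervals (x axis) of the 26 NER genes that have any, without UV in grey and after UV in orange. The bars of *ERCC1* and *RPA1* are the longest, and the grey bar is the longer one in 16 genes.

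A second list held 30 other NER genes, those of the COP9 signalosome that switches the ligase off, the replicative polymerases and clamp, and further factors. Of these, 26 had a TSS interval without UV (86.7%, background 48.0%) and 25 after UV (83.3%, background 54.0%). *POLE*, a subunit of a replicative polymerase, had 2 TSS intervals that summed to 958 bp after UV and none without UV. The reverse held for *POLE2*, with 647 bp, and for *RFC5*, of the clamp loader, with 717 bp. Among the 24 genes with intervals in both lists, 9 were at least 1.5 times wider after UV (37.5%, background 29.4%), with ratios of 1.51 to 2.37. Among them were *PCNA*, the sliding clamp, with 969 bp and 1662 bp, *LIG1* with 498 bp and 981 bp, and *POLD3* with 672 bp and 1591 bp. The others were *COPS6*, *COPS7A*, *POLD1*, *POLD2*, *POLE4* and *RFC1*. The genes *COPS2*, *COPS3*, *COPS5*, *POLD4* and *USP45* were at least 1.5 times narrower (20.8%, background 10.2%), with ratios of 0.45 to 0.66. The call after UV only thus covered 1 of these 30 genes (3.33%) against 6 of the 35 (17.1%). It covered 5 of 22 genes of base excision repair (22.7%) and 1 of 26 of double-strand break repair (3.85%). The background over all protein-coding genes was 9.2%. The share of the 35 genes thus lay below that of base excision repair, and the differences between these lists were not tested.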

How the data were processed

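H3.3 ChIP-seq peak lists of MRC5 cells without UV and 3 h after 10 J/m2 UV-C were analysed, with 1 library per condition. Input libraries were not analysed here. The submitters' processing notes name bcl2fastq 2.17, Trimmomatic 3.36, BWA 0.7.12, MACS 1.4.2 and hg38. Rows with q-values and several summits per interval are the form that later MACS versions write, so the version and control behind these lists are uncertain. The peak threshold for H3.3 is not given in the sources used here, and no row of either list had a −log10 q under 1.30. The authors deposited for each peak a score, a fold enrichment, which is a ratio over background on a linear scale, a −log10 p-value and a −log10 q-value. A shallower library yields fewer peaks, which affects every count of intervals in 1 list only, and the depth is unknown from these lists.

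Peak coordinates were checked against hg38 chromosome ends, and the gene models of GENCODE release 44 were used. Distinct intervals were formed from rows with equal coordinates. Intervals within 1 kb of a TSS of the gene were TSS intervals, and other intervals overlapping the gene by at least 1 bp were body intervals. Widths and summits were summed per gene. A width ratio of at least 1.5 either way was counted. Assignment was tested on simulated lists and checked with bedtools 2.31.1, which found the same 55 and 72 TSS intervals. Exact Clopper-Pearson intervals at 95% cover counting error only. All 35 genes are named. Of other NER genes, the rule named those with a TSS interval in 1 list only or a width ratio past 1.5, and genes whose TSS lies within 1 kb of a TSS interval of the 35. The 35 genes and the lists were chosen with earlier results of these data known. The 4 sequences shown, the GC content of intervals and the summit moves were chosen after values were seen. Scripts ran under Python 3.11.15 with pandas 2.3.3 and numpy 2.4.6, intervals came from scipy 1.17.1, and figures from matplotlib 3.10.9.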

Additional observations from a re-analysis of the deposited data

How the results depend on the processing

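With 1 library per condition no replicate could be left out and no spread between replicates is known. The number of reads behind the lists limits every count of intervals in 1 list only. Of 119 values recomputed under 12 alternative settings, 93 stayed within 1.5 times the main value (shares within their exact interval), 25 did not and 1 crossed a ratio of 1. The causes were not tested.

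In the main setting 8 NER genes were wider (2636), 5 were narrower (919) and 1 had an interval without UV only (642). Numbers in parentheses here and below are those over all protein-coding genes. With a TSS window of 2 kb the median width ratio turned to 0.989 (1.15). With that window 2 genes had an interval without UV only, *POLK* and *RBX1* (689), 10 had more summits (3377) and 5 more body intervals (2672). With 500 bp, 0 genes had an interval without UV only (560) and 4 were wider (2548). With the canonical TSS alone, 2 genes had an interval without UV only (535), 2 were wider (2186), 2 had more summits (1802) and 3 fewer (1022). With a −log10 q of at least 3, 5 genes were wider (2565). With at least 5, 2 genes had an interval without UV only, *CCNH* and *GTF2H3* (475), 4 were wider (2377), 2 narrower (613) and 3 had more summits (2473). Body intervals then numbered 71 and 57 (23191 and 21868), and 10 genes had fewer of them (3301). With equal numbers of peaks, or distance from the summit, 0 genes had an interval without UV only (536 and 633), and with the latter 5 were wider (2601). With the widest interval alone, 5 were wider (2439) and 3 narrower (706). With widths clipped to the TSS windows, 2 were narrower (742). With a ratio of 2, 4 were wider (1323) and 1 narrower (395).

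The number of genes with a TSS interval after UV only ran from 4 to 9 of 35 over the settings. With the 500 bp window it was 4, against 2064 of all 20033 protein-coding genes. In the main setting it was 6, against 1844, and with a −log10 q of at least 5 it was 9, against 2168. How far the NER genes stood above all protein-coding genes in this call thus depended on the setting.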
